A study of Mus musculus with 31 samples.

Results

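Mammary tumors of K5ΔNβcat mice were compared with mammary tissue of control mice across all genes of an expression array. The 15 arrays were those whose titles name a tumor of K5ΔNβcat mice (11) or control mice (4, tissue and not sorted cells), of 31 arrays in all. K5ΔNβcat mice carry a transgene for β-catenin that lacks its N-terminal part and so escapes degradation, placed under the keratin 5 promoter, which is active in the basal layer of the mammary epithelium and of skin. Control mice have the genotype named control. The labels give strain C57BL6 for both groups, whereas the methods describe a mixed 129SV/C57BL6 background. The ages, the parity and the hour of tissue collection are not given in the labels. RNA was taken from whole mammary tissue, 1 array per sample. Whether each sample is from its own animal is not stated, and the p-values then reflect only how these samples vary, which may be technical. Large hyperplasias of the same transgenic mice (5 arrays) are described only to show where tumors stand against another lesion of the same model. They and 5 small hyperplasias were also part of the fit behind every p-value, and of the choice of probe set.

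β-catenin carries the Wnt signal into the nucleus, where it acts with Tcf and Lef factors. In skin this signal directs epithelium towards hair follicle fates, and in the mammary gland it maintains basal cells. The control mammary gland is a thin tree of epithelial ducts embedded in a pad of fat, so that RNA of whole control tissue comes from adipocytes, vessels and resting stroma as well as from epithelium. In bulk tissue, fewer cells of a type and less RNA per cell cannot be told apart.

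A gene is given here by 1 probe set, the one with the highest mean signal, and by its MAS5 signal, a linear intensity that the authors scaled to a mean of 100 on each array. The test took in each gene with a median of at least 30 in tumors or in control tissue, and differences are on the scale of log2 of the signal plus 16, tumors minus control tissue. The median signal of an array was between 23.9 and 29.6 for tumors and between 27.1 and 30.1 for control tissue, and the arrays of tumors 1, 2 and 3 (29.1 to 29.6) lay above those of tumors 4 to 11 (23.9 to 26.7). *Ctnnb1*, the gene of β-catenin, had signals of 3370, 3571 and 4369 in the lowest, median and highest tumor, against 2391, 2449, 3054 and 2579 in control tissue, a difference of 0.49 ± 0.08 (SE, adjusted p = 5.5e-06 in limma). The groups did not overlap, and its 2 other tested probe sets were higher as well. Whether these probe sets detect the transgene is not known. *Krt5*, whose promoter drives the transgene, had signals of 1810, 2841 and 3678 in tumors, against 238.9, 291.8, 335.4 and 369.0 in control tissue (difference 3.09 ± 0.15, adjusted p = 4.7e-15). Control tissue carried the signals of a gland in its fat pad, with *Krt5* of basal epithelium well above 30 and *Adipoq* of adipocytes between 11330 and 12490.

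The test called 8002 of 24086 probe sets (33.2%) higher and 8650 (35.9%) lower in tumors at an adjusted p under 0.05. At 1 probe set per gene, 4137 of 11831 genes (35.0%) were higher and 4357 (36.8%) lower. Counts of list members below are to be read against these shares. A gene that reached 30 in only 1 of the groups had to differ to be tested. A count that includes such genes is no support by itself. A rise of at least 1 on the log2 scale was found for 13.4% of the genes and a fall of that size for 12.2%. In 21.6% every tumor was above every control tissue and in 23.7% every tumor was below. The differences ran between -7.25 and 8.22 with a median of -0.02, and 5% of the genes lay above 1.85 and 5% below -1.75. Of 8494 called genes, 417 have another probe set that was called in the opposite direction.

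**Figure D1:**
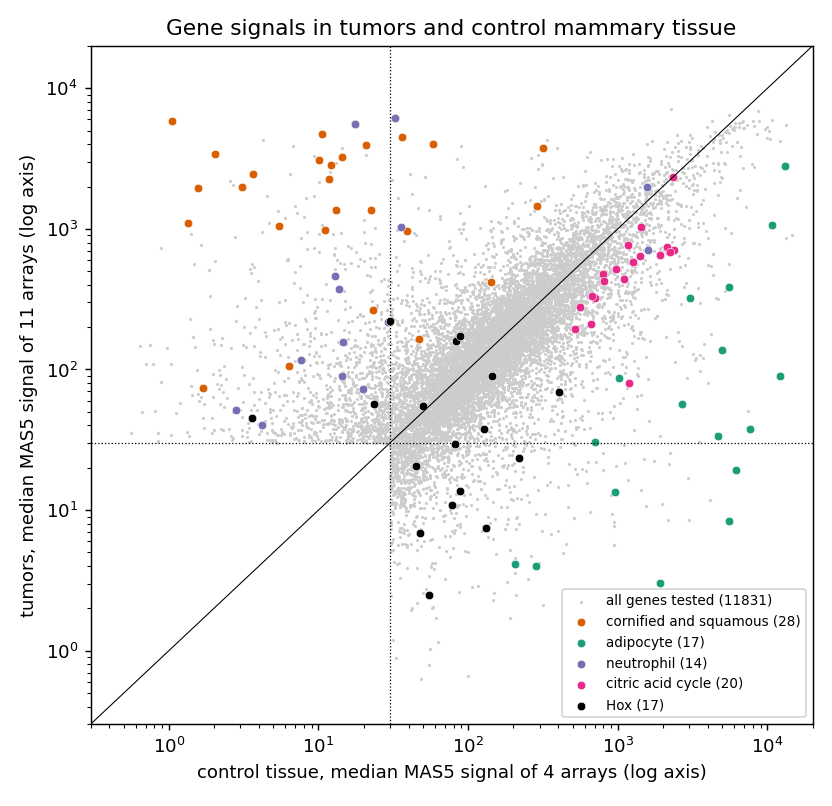
Median MAS5 signal of each tested gene in the 11 tumors (vertical) and the 4 control tissues (horizontal), both on log axes, with 5 gene lists in colour and dotted lines at a signal of 30. Cornified envelope genes lie far above the diagonal with control medians mostly below 30, adipocyte genes lie far below it, and citric acid cycle genes lie close together, all but 1 of them clearly below it.

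The 12 largest rises by the naming rule were *Krt6b*, *Stfa3*, *Krt1*, *Krt6a*, *Calm4*, *Sprr1b*, *S100a9*, *Cst6*, *Krt16*, *Rptn*, *S100a8* and *Sprr2h*. They encode keratins of stratified or stressed epidermis, small proteins that are cross-linked into its surface (*Sprr1b*, *Sprr2h*, *Rptn*), cysteine protease inhibitors (*Stfa3*, *Cst6*), an epidermal calcium-binding protein (*Calm4*) and the subunits of calprotectin (*S100a8*, *S100a9*), which neutrophils and inflamed epidermis make. The 12 largest falls were *Cidec*, *Plin4*, *Nnat*, *Retn*, *Cyp2e1*, *Lep*, *Adipoq*, *Npr3*, *Pck1*, *Ces1d*, *Cdo1* and *Amy1*, and most of these are known from adipocytes. None of these 24 genes overlapped between the groups, which the rule required. Near-identical copies (*Krt6a* and *Krt6b*, the *Sprr2* and *Lce* genes, the stefins, the amylases) can share hybridisation, so their signals are uncertain as values of single genes.

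Genes of the cornified envelope, the protein shell that hardens the outer cells of skin, rose the most. Of 30 listed genes, 29 are on the array and 28 passed the filter, and all 28 were higher, each without overlap between the groups, by 1.51 to 8.22 with a median of 6.06. With the 13 genes that stayed below 30 in every control tissue set at their lower bounds, the median was 5.68. The median over all genes tested was -0.02. A gene that reached 30 only in tumors had to differ to be tested at all, so the count describes the genes that passed and is no support by itself. *Krt6b*, a keratin of wounded and hair-associated epidermis, had signals of 4786, 5819 and 6903 in tumors, against 14.9, 0.629, 0.602 and 1.47 in control tissue. All control tissues were thus at background, and tumors were at least 195-fold higher (difference 8.22 ± 0.34, adjusted p = 1.8e-16). *Krt1*, the keratin of suprabasal epidermis, had 1030, 3403 and 5262 in tumors, against 6.29, 1.17, 1.92 and 2.15 in control tissue, at least 105-fold higher (adjusted p = 6.7e-15). *Sprr1b*, a cross-linked surface protein, had 1451, 1953 and 3694 in tumors, against 2.32, 1.51, 0.521 and 1.63 in control tissue, at least 75.2-fold higher (adjusted p = 1.7e-13). All 11 tumors were high for each of these genes. The signals of the listed genes summed to 50140 to 93800 on tumor arrays and to 1091 to 1501 on control arrays. Against large hyperplasias, 25 of the 28 were higher in tumors and 1 was lower, where 22.7% of 11747 genes were higher and 31.9% lower in that comparison, and *Krt6b* (log2 difference 4.00) and *Sprr1b* (4.77) were among them.

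The promoters of 6 cornified envelope genes are shown. They were picked because each holds a short sequence that was more frequent among the genes that rose most than among all genes tested. The motif TGANTCA takes in TGACTCA and TGAGTCA, the site that AP-1 (dimers of Fos and Jun proteins) is known to bind. It also takes in TGAATCA and TGATTCA, which differ from that site in the middle base, and the counts do not separate these forms. TGANTCA was found in 9 of the 18 listed genes that have a promoter in the RefSeq table (*Ivl*, *Lor*, *Flg*, *Rptn*, *Sprr1a*, *Sprr1b*, *Krtdap*, *Dmkn* and *Sbsn*). In the printed stretches *Rptn* has only TGATTCA and *Sprr1b* only TGAATCA. The 150 bases before the start of 6 of them are printed in build GRCm38.p6, 5′ to 3′ on the strand of the gene, with the motif in capitals.
Ivl: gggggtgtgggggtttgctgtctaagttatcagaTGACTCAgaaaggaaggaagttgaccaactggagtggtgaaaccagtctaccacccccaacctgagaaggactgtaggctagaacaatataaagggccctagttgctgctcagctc
Lor: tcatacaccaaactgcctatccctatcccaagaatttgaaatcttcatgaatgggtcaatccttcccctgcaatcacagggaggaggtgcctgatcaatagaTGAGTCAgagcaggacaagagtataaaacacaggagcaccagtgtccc
Rptn: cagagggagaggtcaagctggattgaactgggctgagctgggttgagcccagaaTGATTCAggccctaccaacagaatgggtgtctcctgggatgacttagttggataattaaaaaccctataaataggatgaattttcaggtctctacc
Krtdap: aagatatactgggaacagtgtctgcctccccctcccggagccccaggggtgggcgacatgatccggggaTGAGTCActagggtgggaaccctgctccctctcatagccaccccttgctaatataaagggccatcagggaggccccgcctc
Sprr1a: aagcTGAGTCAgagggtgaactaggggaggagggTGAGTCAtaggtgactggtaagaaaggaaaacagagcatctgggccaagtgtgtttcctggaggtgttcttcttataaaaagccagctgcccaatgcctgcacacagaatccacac
Sprr1b: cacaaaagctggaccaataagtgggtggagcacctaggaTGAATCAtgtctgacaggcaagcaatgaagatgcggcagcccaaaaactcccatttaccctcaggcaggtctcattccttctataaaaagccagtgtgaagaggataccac
These lie at chr3:92573736-92573885 (minus strand) for *Ivl*, chr3:92083143-92083292 (minus) for *Lor*, chr3:93393549-93393698 (plus) for *Rptn*, chr7:30787755-30787904 (plus) for *Krtdap*, chr3:92485882-92486031 (minus) for *Sprr1a* and chr3:92438780-92438929 (minus) for *Sprr1b*. *Ivl* and *Sprr1a* have a motif that begins at position -116, *Sprr1b* at -111, *Rptn* at -96, *Krtdap* at -81 and *Lor* at -48, counted from the start site, and *Sprr1a* has a second one at -146.

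Over windows of 300 bases (250 before to 50 after the first listed start, both strands, RefSeq), TGANTCA was found in 5.37% of 9523 tested genes with a promoter and in 7.93% of all 27025 promoters. Among called genes it was found in 11.2% of 1222 that rose by at least 1 on the log2 scale, in 18.0% of 384 that rose by at least 2, and in 28.8% of 80 that rose by at least 4. Among genes that fell it was found in 6.00% of 1134 (by at least 1), 6.01% of 333 (by at least 2) and 2.38% of 42 (by at least 4), and in 0 of 13 adipocyte genes. TTGCNNAA, a motif of C/EBP factors, was likewise more frequent among the genes that rose most. It was found in 8.60% of all tested genes, 16.7% of the genes that rose by at least 2, 20.0% of those that rose by at least 4 and 6 of the 18 cornified envelope genes (33.3%), and in 10.5% of those that fell by at least 2. Its share of all 27025 promoters was 10.8%. The Tcf and Lef motif (CTTTGAA or CTTTGAT) was found in 6.04% of all tested genes, 8.33% of the genes that rose by at least 2 and 6.25% of those that rose by at least 4, against 8.77% of all promoters. The motifs were chosen with the results known, no test was made of these shares, and members of 1 gene cluster can share promoter sequence by descent. Among the genes of AP-1 proteins, *Fosl2* had 597.6, 792.4 and 884.0 in tumors, against 157.0, 188.6, 163.8 and 170.4 in control tissue (difference 2.07 ± 0.10, adjusted p = 5.0e-15). *Junb* rose by 1.76 (adjusted p = 6.3e-11) and *Fosl1* by 1.85 (adjusted p = 3.7e-06), both without overlap. *Fos* (0.40) and *Jun* (0.61) passed the test with overlapping groups, and a second probe set of *Jun* was lower. Whether AP-1 proteins act on the genes that rose was not tested.

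Genes of hair follicle differentiation were higher in tumors to very different degrees. Of 28 listed genes, 25 are on the array, 16 passed the filter, 11 rose and 0 fell, with a median of 1.46 (0.81 with 7 genes at their bounds). *Tchh*, which encodes trichohyalin of the inner root sheath, had 208.1, 864.9 and 1697 in tumors, against 22.9, 14.1, 0.160 and 1.20 in control tissue, at least 25.1-fold higher (adjusted p = 1.3e-10). *Krt25*, a keratin of the inner root sheath, had 39.5, 300 and 1922 in tumors, against 41.7, 8.62, 7.13 and 0.355 in control tissue (difference 3.41 ± 0.66, adjusted p = 6.5e-05), and the groups overlapped. *Krt73*, another root sheath keratin, rose by 4.21 on the log2 scale and *Padi3*, which modifies trichohyalin, was at least 10.6-fold higher, both without overlap. The mean over the list stood 2.82 to 3.38 above the control mean in tumors 1, 2 and 3 and 0.89 to 1.88 above it in tumors 4 to 11. Against large hyperplasias, 10 of 16 genes were lower in tumors and 1 was higher.

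Genes of epithelial adhesion and surface identity were mostly higher. Of 21 genes tested, 13 rose, 3 fell and the median was 1.54. *Dsp*, the desmosomal linker desmoplakin, had 3159, 3744 and 4788 in tumors, against 269.7, 432.6, 472.1 and 353.2 in control tissue (difference 3.26 ± 0.11, adjusted p = 8.0e-18). *Cldn1*, a tight junction protein, rose by 3.49, *Esrp2*, a splicing factor of epithelia, by 2.39, and *Ovol1*, a transcription factor of epidermal differentiation, was at least 5.73-fold higher. The genes that fell were *Krt19* (-1.61) and *Cldn3* (-1.06), both of simple epithelia, and *Tjp3* (-0.44). All 3 had overlapping groups.

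Genes of Wnt feedback and known Wnt targets showed a mixed pattern. Of 27 listed, 25 are on the array, 20 passed the filter, 11 rose and 2 fell, with a median of 0.68. *Wif1*, a secreted Wnt antagonist, had 108.0, 465.5 and 1035 in tumors, against 29.9, 19.6, 23.6 and 20.4 in control tissue, at least 12.3-fold higher (adjusted p = 1.1e-07). *Dkk1*, an antagonist that blocks Wnt co-receptors, had 26.6, 182.4 and 544.1 in tumors, against 2.50, 4.42, 0.599 and 17.2 in control tissue, at least 5.94-fold higher (adjusted p = 5.0e-07). All 11 tumors were above all 4 control tissues for both. *Tnfrsf19*, a receptor of the TNF family induced by Wnt signals, was at least 3.50-fold higher, and *Dkk3* rose by 1.88. *Lgr5*, a receptor for R-spondins that amplifies Wnt signals, had 21.0, 63.3 and 263.2 in tumors, against 116.7, 176.6, 181.4 and 175.7 in control tissue (difference -0.99 ± 0.36, adjusted p = 0.018), with overlap. This call was lost when only the groups compared were fitted (adjusted p = 0.052). *Sfrp4*, an antagonist made by stroma, was lower at -1.02. Against large hyperplasias 11 of 20 genes were lower in tumors and 3 were higher, and *Dkk1* (2.72) and *Dkk3* (1.46) were among those higher.

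Casein genes were at background in control tissue and reached high signals in tumors. Of 12 milk and lactation genes tested, 5 rose and 1 fell, with a median of 1.01 (0.65 with 6 genes at their bounds). Over all genes 35.0% were higher and 36.8% lower, and a gene that reached 30 only in tumors had to differ to be tested. The signals of the list summed to 4127 to 47910 on tumor arrays and to 4491 to 7579 on control arrays, with overlap. Parity is not given in the labels, so parity and tumor cannot be told apart. *Csn2*, which encodes β-casein, had 172.2, 1707 and 6004 in tumors, against 7.67, 1.15, 8.43 and 1.37 in control tissue, at least 43.1-fold higher (adjusted p = 2.3e-08). *Csn1s1*, another casein, had 191.4, 1337 and 6886 in tumors, against 1.16, 12.9, 2.20 and 8.50 in control tissue, at least 42.8-fold higher (adjusted p = 8.3e-09). Both were high in every tumor, whereas *Csn1s2a* (0.961, 595.0 and 6778 in tumors) and *Glycam1* (0.894, 99.7 and 6880 in tumors) overlapped with control tissue, where both were at background. *Mfge8*, a milk fat globule protein that other cells make too, was lower (-0.97). The mean over the list was highest in tumors 1, 2 and 3 (3.19 to 4.39 above the control mean), and ranged from 0.43 to 2.31 in tumors 4 to 11. In large hyperplasias the median signal of *Csn2* was 29.8, and tumors were 4.57 higher on the log2 scale (adjusted p = 2.0e-06).

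**Figure D2:**
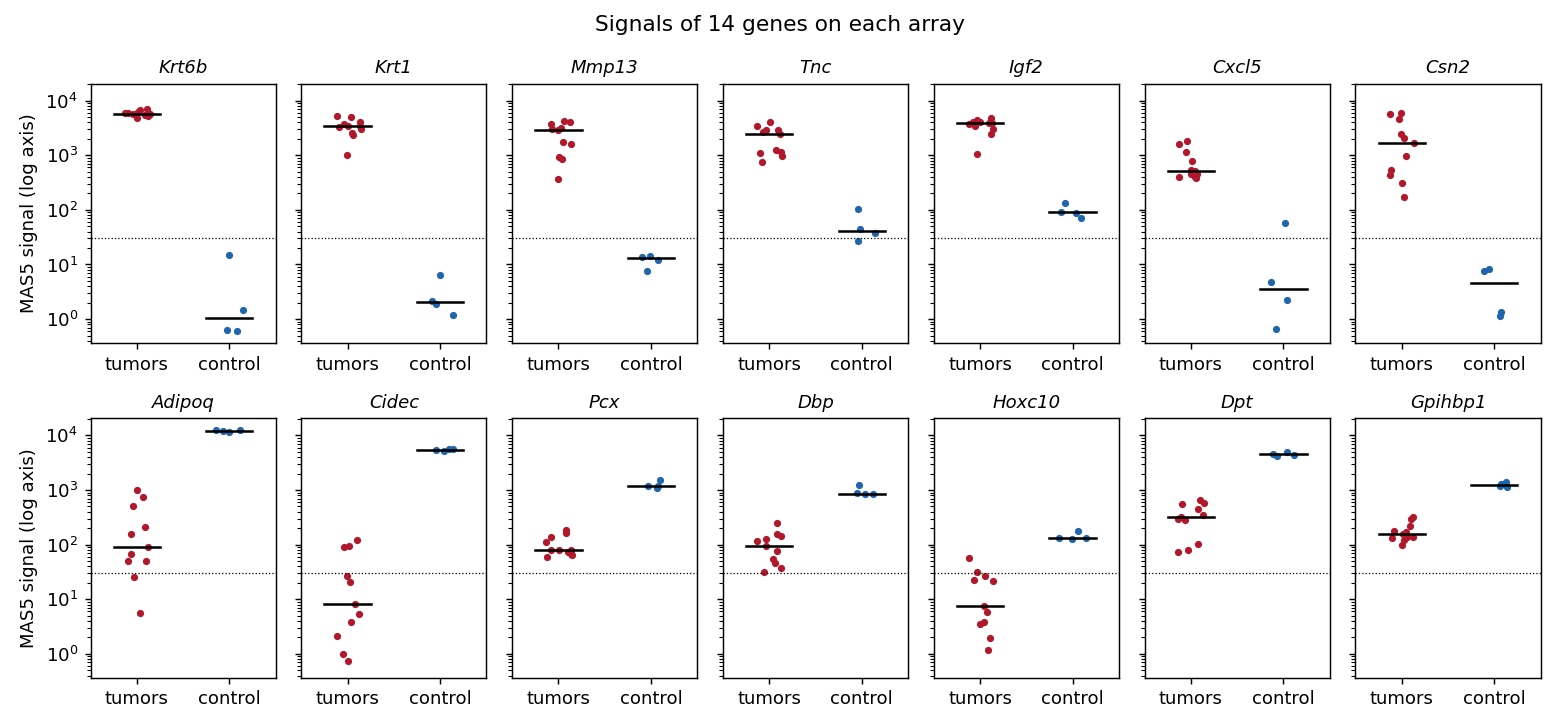
MAS5 signal (log axis) of 14 genes on each of the 11 tumor arrays (left, red) and the 4 control arrays (right, blue), with the group median as a bar and a dotted line at 30. *Krt6b* lies between 4786 and 6903 in tumors, *Csn2* varies between 172.2 and 6004, and the tumor medians of *Hoxc10* and *Cidec* lie below 30.

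Most genes of matrix proteases and their inhibitors were higher, with falls among both. Of 23 genes tested, 14 rose and 5 fell, with a median of 1.55. *Mmp13*, a collagenase, had 366.3, 2946 and 4174 in tumors, against 12.2, 13.9, 14.1 and 7.504 in control tissue, at least 64.2-fold higher (adjusted p = 1.7e-11). *Mmp12*, an elastase of macrophages, had 152.1, 1774 and 2583 in tumors, against 159.9, 17.1, 41.0 and 43.2 in control tissue (difference 4.36 ± 0.51, adjusted p = 4.8e-08), and control tissue 1 lay above the lowest tumor. *Mmp10*, stromelysin 2, was at least 8.21-fold higher. Among the inhibitors *Timp1* rose by 3.29, whereas *Timp2* (-0.87), *Timp3* (-1.92) and *Timp4* (-5.17) fell. *Timp4*, which is known from adipose tissue, had 0.729, 5.67 and 63.2 in tumors, against 858.5, 1065, 834.0 and 1021 in control tissue (adjusted p = 4.8e-12). *Adamts5* (-2.02) and *Mmp2* (-0.49) were also lower, and the call of *Mmp2* was lost without control tissue 2 (adjusted p = 0.063).

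Interstitial matrix genes moved in both directions, more of them up. Of 27 interstitial matrix genes tested, 14 rose and 4 fell, with a median of 0.45. *Tnc*, which encodes tenascin C, had 758.0, 2476 and 4027 in tumors, against 105.8, 27.0, 37.1 and 45.1 in control tissue (difference 4.87 ± 0.37, adjusted p = 1.3e-11). *Col12a1*, a collagen that associates with fibrils, rose by 4.28 and *Vcan*, the proteoglycan versican, by 2.25, and *Tnn*, tenascin N, was at least 2.24-fold higher. The genes that fell were *Dcn* (decorin, -1.54), *Col15a1* (-1.31), *Sparc* (-0.96) and *Mfap5* (-0.58). The call of *Sparc* was lost under quantile normalization (-0.25, adjusted p = 0.15), and that of *Mfap5* in a fit of both groups alone (adjusted p = 0.052) and without control tissue 1 (adjusted p = 0.094). Of 20 basement membrane genes, 9 rose and 7 fell (median 0.14), where 35.0% of all genes were higher and 36.8% lower. *Col7a1*, the anchoring fibril collagen of skin, had 157.1, 420.0 and 798.6 in tumors, against 27.5, 82.5, 52.9 and 55.3 in control tissue (difference 2.48 ± 0.29, adjusted p = 4.7e-08). *Lama3* (1.75), *Col17a1* (1.68) and *Agrn* (1.44) rose too, and *Lama4* (-0.95) and *Col4a6* (-0.95) fell.

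Most neutrophil genes were higher in tumors, and so were most of a mixed list of chemokines and cytokines. On the array, 4 of the neutrophil genes and 2 of the chemokines and cytokines are also members of another list. Of 14 neutrophil genes tested, 12 rose and 0 fell, with a median of 2.53 (2.19 with 5 genes at their bounds). Over all genes 35.0% were higher and 36.8% lower. A gene that reached 30 only in tumors had to differ to be tested, so the counts of both lists are no support by themselves. *S100a8* had 4143, 6120 and 8057 in tumors, against 141.4, 32.7, 10.4 and 32.5 in control tissue (difference 6.74 ± 0.35, adjusted p = 9.6e-15). Control tissue 1 had the highest of the 4 control signals, and all tumors were far above it. *Il1b*, an inflammatory cytokine, had 218.0, 1039 and 1730 in tumors, against 50.8, 19.2, 24.3 and 47.1 in control tissue (difference 3.96 ± 0.43, adjusted p = 1.0e-08). Epidermal keratinocytes can also make *S100a8*, *S100a9* and *Il1b*, and the part of these cells in the rise was not tested. Of 25 chemokines and cytokines tested, 16 rose, 3 fell and the median was 1.70 (1.31 with 5 genes at their bounds). *Cxcl5*, a ligand of the neutrophil receptor Cxcr2, had 376.9, 522.5 and 1842 in tumors, against 56.5, 2.25, 4.73 and 0.649 in control tissue (difference 4.70 ± 0.40, adjusted p = 1.4e-10). Its relatives *Cxcl2* (4.16) and *Cxcl3* (3.52) rose, and so did *Il1rn*, the inhibitor of interleukin 1 (3.87). *Ccl11* (-1.06), *Cxcl12* (-0.84), both made by stroma, and *Ccl28* (-0.61) were lower.

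Macrophage and interferon genes were higher as well, and control tissue 1 stood close to the tumors. Of 20 macrophage genes, 13 rose and 1 fell, with a median of 0.99. *Arg1*, arginase of activated macrophages, had 551.2, 1867 and 3791 in tumors, against 496.9, 198.5, 66.7 and 153.6 in control tissue (difference 3.08 ± 0.45, adjusted p = 1.6e-06). *Gpnmb* (2.15) and *Msr1* (1.93) rose as well, and *Trem2* was at least 2.26-fold higher. *Cd163*, a receptor of resident macrophages, had 35.1, 89.5 and 346.8 in tumors, against 385.5, 476.6, 397.6 and 435.4 in control tissue (difference -2.04 ± 0.36, adjusted p = 2.4e-05), with no overlap. Of 16 interferon response genes, 12 rose and 1 fell, with a median of 0.95. *Oas1a*, an antiviral enzyme, had 414.3, 745.5 and 1323 in tumors, against 217.8, 74.8, 75.5 and 76.6 in control tissue (difference 2.69 ± 0.26, adjusted p = 1.4e-09). *Cxcl10* rose by 2.97 and *Oasl2* by 2.15, both with overlap, and *Ifi27l2a* fell by 3.15. The mean over the macrophage list was 0.68 in control tissue 1 and between -0.29 and -0.17 in the other 3 control tissues, against 0.24 to 1.44 in tumors. For the interferon list control tissue 1 stood at 0.73 and the other 3 between -0.35 and -0.13, against 0.10 to 1.801 in tumors. Without control tissue 1, the counts of higher genes stayed within 1.5 times of those given. Against large hyperplasias, 10 macrophage genes were lower in tumors and 2 higher.

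Few lymphocyte and MHC class II genes passed the test. Of 13 lymphocyte genes tested, 4 rose and 2 fell, with a median of 0.09 and no gene without overlap. *Gzmb*, a protease of cytotoxic cells, rose by 1.502, and *Ighm*, the immunoglobulin M heavy chain, fell by 2.37 with signals of 96.5, 665.4 and 3725 in tumors, against 2180, 7866, 5385 and 3294 in control tissue. *Cd79a*, *Cd79b* and *Ms4a1*, which define B cells, did not pass the filter. Of 7 MHC class II genes tested, 2 rose (*H2-Ab1* at 0.63 and *H2-DMa* at 0.51) and 0 fell. The call of *H2-DMa* was lost without control tissue 2 (adjusted p = 0.095), without control tissue 4 (adjusted p = 0.082) and in a fit of both groups alone (adjusted p = 0.053), which leaves 1. All 7 were lower in tumors than in large hyperplasias, by a median of 0.68.

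Growth factor genes changed in both directions, and *Igf2* had the largest rise of the list. Of 26 ligands tested, 14 rose and 6 fell. *Igf2*, an imprinted fetal growth factor, had 1040, 3869 and 4870 in tumors, against 92.7, 70.0, 87.8 and 134.5 in control tissue (difference 4.92 ± 0.39, adjusted p = 4.7e-11), with its other probe set higher as well. In large hyperplasias its median was 102.4, and tumors were 4.97 higher (adjusted p = 1.0e-10). *Fgfbp1*, a carrier that releases fibroblast growth factors, rose by 4.65, and the Egf receptor ligands *Tgfa* and *Hbegf* by 3.21 and 3.07. *Fgf1* (-2.27) and *Vegfd* (-2.22) were lower. Other imprinted or fetal growth genes were divided. Of 11 tested, 3 rose (*Igf2*, *Hmga2* at 1.15 and *Phlda2*, which was at least 2.79-fold higher) and 6 fell. *Peg3*, an imprinted zinc finger gene, had 24.4, 57.9 and 104.1 in tumors, against 1545, 247.5, 854.6 and 1201 in control tissue (difference -3.52 ± 0.39, adjusted p = 1.6e-08). *Cdkn1c*, an imprinted inhibitor of the cell cycle, fell by 2.31, *Ndn* by 1.84 and *Grb10*, an adaptor that restrains insulin signals, by 1.23.

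Adipocyte genes were the lowest of the 42 lists. All 17 tested genes fell, with differences between -7.25 and -2.68 and a median of -4.85, and 16 did so without overlap. *Cidec*, a lipid droplet protein, had 0.725, 8.34 and 123.0 in tumors, against 5607, 5705, 5431 and 5231 in control tissue (difference -7.25 ± 0.48, adjusted p = 1.2e-12). *Lep*, which encodes the hormone leptin, had 1.17, 3.02 and 22.1 in tumors, against 2020, 1793, 1649 and 2184 in control tissue, at least 63.3-fold lower (adjusted p = 1.6e-13). *Adipoq*, which encodes adiponectin, had 5.64, 89.6 and 1004 in tumors, against 12490, 11840, 11330 and 12490 in control tissue (adjusted p = 4.7e-09). The 4 control tissues were alike for these genes, whereas tumors varied widely and none overlapped with control tissue. The signals of the list summed to 2129 to 9712 on tumor arrays and to 78640 to 85110 on control arrays. The mean over the list was -4.07 to -3.59 in tumors 1 to 3 and -5.54 to -4.74 in the others. Against large hyperplasias all 17 were lower too, by a median of 2.63.

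Fat synthesis and the mitochondrial breakdown of fuels fell with the adipocyte genes. Of 19 genes of fatty acid and triglyceride synthesis, 18 fell and 1 rose, with a median of -3.03. *Pck1*, which supplies glycerol phosphate in fat, had 0.908, 8.47 and 123.5 in tumors, against 2987, 3175, 2901 and 3001 in control tissue (difference -6.21 ± 0.46, adjusted p = 1.3e-11). *Gpd1* fell by 5.46, *Acacb* by 4.07 and *Agpat2* by 4.04. *Scd2*, a fatty acid desaturase, was the gene that rose, with 1563, 2030 and 2613 in tumors, against 394.9, 903.2, 562.4 and 524.0 in control tissue (difference 1.81 ± 0.19, adjusted p = 6.1e-09). All 18 genes of fatty acid oxidation fell (median -1.73), among them *Ech1* (-2.78), *Decr1* (-2.75) and *Acadm* (-2.65). All 17 genes of branched-chain amino acid breakdown fell (median -2.02), each without overlap. *Ivd*, an enzyme of leucine breakdown, had 49.2, 74.3 and 108.3 in tumors, against 714.6, 785.2, 714.6 and 648.5 in control tissue (difference -3.02 ± 0.14, adjusted p = 1.1e-15). *Aldh6a1* fell by 3.32 and *Hibch* by 3.19. Of 20 citric acid cycle genes, 19 fell and 0 rose (median -1.10). *Pcx*, pyruvate carboxylase, had 59.4, 80.0 and 182.3 in tumors, against 1105, 1538, 1188 and 1177 in control tissue (difference -3.51 ± 0.29, adjusted p = 8.5e-11), whereas *Sdha* (-1.73), *Pdha1* (-1.66) and *Idh3a* (-1.58) fell by less. Mature adipocytes express these pathways strongly, and the part of the adipocyte share in these falls was not tested.

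Genes of glycolysis, cholesterol synthesis and amino acid supply moved in both directions. Of 17 glycolytic genes, 10 rose and 3 fell (median 0.47). *Slc2a1*, a glucose transporter, had 758.7, 1406 and 2141 in tumors, against 183.6, 210.1, 172.6 and 186.7 in control tissue (difference 2.71 ± 0.21, adjusted p = 3.2e-11). *Slc16a3*, a lactate exporter, rose by 1.72, *Pdk1* by 1.30 and *Pgam1* by 1.27, whereas *Pfkfb3* (-2.69), *Aldoa* (-1.05) and *Pfkm* (-0.48) fell. Of 19 cholesterol synthesis genes, 13 rose and 1 fell (median 0.63). *Sqle*, squalene epoxidase, had 498.1, 630.3 and 807.5 in tumors, against 131.1, 143.0, 156.6 and 162.7 in control tissue (difference 2.03 ± 0.13, adjusted p = 8.4e-13), *Hsd17b7* rose by 2.42 and *Cyp51* by 2.39, and *Insig1*, which retains the activator of this pathway, fell by 1.36. Of 19 serine, one-carbon and Atf4 genes, 9 rose and 5 fell, where 35.0% of all genes were higher and 36.8% lower. *Aldh18a1*, of proline synthesis, rose by 1.53 and *Slc7a11*, the cystine transporter, was at least 1.62-fold higher. *Slc1a5*, a glutamine transporter, had 54.8, 121.7 and 169.2 in tumors, against 3223, 3355, 3357 and 3518 in control tissue (difference -4.73 ± 0.20, adjusted p = 2.8e-16), and its second probe set was lower too. *Phgdh*, of serine synthesis, fell by 2.36 and *Asns*, asparagine synthetase, by 1.46.

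**Figure D3:**
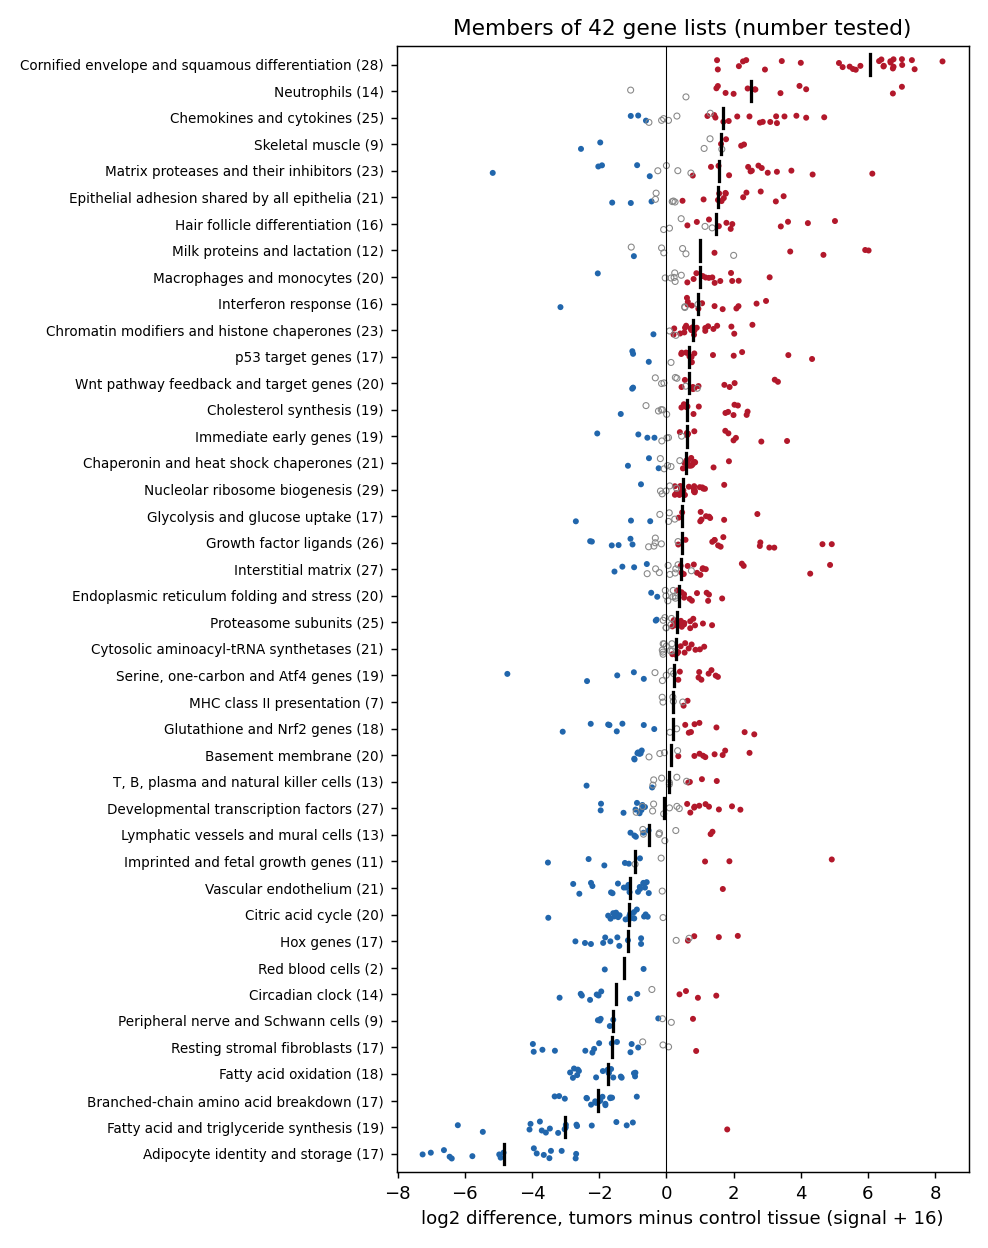
Log2 difference of each tested member of the 42 gene lists, tumors minus control tissue, with the number tested in brackets. Filled points passed the test (red higher, blue lower), open points did not, and black bars are medians, which run from -4.85 for adipocyte genes at the bottom to 6.06 for cornified envelope genes at the top.

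Genes for making, folding and degrading protein rose by small amounts in most lists. Of 29 nucleolar genes of ribosome assembly, 23 rose and 1 fell (median 0.51). *Nhp2*, of the complexes that modify ribosomal RNA, had 716.8, 1015 and 1493 in tumors, against 324.3, 346.7, 271.8 and 249.2 in control tissue (difference 1.72 ± 0.14, adjusted p = 7.6e-11), whereas its partner *Nop10* fell by 0.75. Of 21 cytosolic aminoacyl-tRNA synthetases, 12 rose and 0 fell (median 0.28), led by *Hars* (1.13) and *Qars* (1.00). Of 21 chaperonin and heat shock genes, 13 rose and 3 fell (median 0.60), with *Hspa1a* at 1.86 and *Cct4* at 0.84. Of 20 endoplasmic reticulum genes, 11 rose and 2 fell (median 0.39), with *Ero1a* at 1.66 and *Hsp90b1*, Grp94, at 1.27. Of 25 proteasome subunits, 17 rose and 2 fell (median 0.32). *Psmc4*, an ATPase of the proteasome cap, had 855.2, 1177 and 1377 in tumors, against 413.5, 402.3, 470.6 and 427.8 in control tissue (difference 1.36 ± 0.13, adjusted p = 8.2e-10). Of 23 chromatin modifiers and histone chaperones, 20 rose and 1 fell (median 0.78). *Hmgb2*, a chromatin protein of proliferating cells, had 460.4, 546.8 and 747.4 in tumors, against 67.1, 57.5, 126.2 and 100.5 in control tissue (difference 2.56 ± 0.16, adjusted p = 2.5e-13), and *Uhrf1*, which maintains DNA methylation, was at least 3.53-fold higher.

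Most genes that p53 is known to activate were higher. Of 17 tested, 13 rose and 3 fell, with a median of 0.69. *Pmaip1*, which encodes the death protein Noxa, had 246.6, 600.3 and 967.0 in tumors, against 18.8, 7.48, 18.6 and 8.08 in control tissue, at least 18.8-fold higher (adjusted p = 2.7e-13). *Cdkn1a*, which encodes the cell cycle inhibitor p21, had 533.6, 1007 and 1177 in tumors, against 286.1, 216.8, 148.9 and 116.6 in control tissue (difference 2.26 ± 0.20, adjusted p = 2.7e-10). *Perp*, a desmosomal protein that p63 activates as well, rose by 3.63. *Phlda3* (-1.01), *Fas* (-0.99) and *Sesn1* (-0.52) were lower. Of 19 immediate early genes, 11 rose and 4 fell (median 0.61). *Egr3* had 296.7, 539.8 and 628.3 in tumors, against 18.99, 32.4, 27.3 and 20.1 in control tissue (difference 3.59 ± 0.17, adjusted p = 3.2e-15), *Ier3* rose by 2.83, and *Klf2*, a factor of vessels and resting lymphocytes, fell by 2.06. *Dusp1* (-0.83), *Zfp36* (-0.56) and *Klf6* (-0.35) were lower with overlap. Of 18 glutathione and Nrf2 genes, 8 rose and 8 fell, where 35.0% of all genes were higher and 36.8% lower. *Gpx2* (2.62) and *Gsto1* (2.33) rose, *Gstm1*, a glutathione transferase, had 82.6, 128.4 and 181.9 in tumors, against 1058, 1159, 1131 and 1173 in control tissue (difference -3.08 ± 0.15, adjusted p = 2.4e-15), and *Sod3* fell by 2.25.

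Genes of endothelium and resting fibroblasts were lower. Of 21 endothelial genes, 19 fell and 1 rose, with a median of -1.10. *Gpihbp1*, which anchors lipoprotein lipase to capillaries, had 100.5, 155.4 and 321.0 in tumors, against 1390, 1211, 1277 and 1141 in control tissue (difference -2.77 ± 0.23, adjusted p = 1.1e-10). *Ptprb* (-2.59), *Sox17* (-2.24) and *Tek* (-2.20) fell, and *Fabp5*, which keratinocytes also express, rose by 1.68. Against large hyperplasias, 5 of 21 endothelial genes were lower in tumors and 4 were higher, with a median of -0.06. Of all genes in that comparison, 31.9% were lower and 22.7% higher. Of 17 genes of resting fibroblasts, 13 fell and 1 rose (*Dpp4*, 0.89), with a median of -1.62. *Dpt*, the matrix protein dermatopontin, had 72.5, 322.1 and 670.9 in tumors, against 4644, 4911, 4117 and 4448 in control tissue (difference -3.97 ± 0.39, adjusted p = 2.4e-09), and *Scara5* fell by 3.95. Of the fibroblast genes, 15 of 17 were lower in tumors than in large hyperplasias and 1 was higher. Of 13 genes of lymphatic vessels and mural cells, 5 fell, including *Cspg4* (-1.07) and *Rgs5* (-0.91), and 2 rose, *Pdgfrb* (1.37) and *Pdpn* (1.32), which activated fibroblasts also express. That count of falls is near the share over all genes (36.8%). The mean over this list was -0.60 to 0.40 in tumors, which spans the -0.15 to 0.13 of control tissue. Of 9 genes of peripheral nerve, 6 fell, including *Kcna1* (at least 3.02-fold) and *Cdh19* (at least 1.83-fold), and *Ngfr* rose by 0.79. Of 8 listed genes of red blood cells, 5 are on the array and 2 were tested. Both fell, *Alas2* by 1.83 and *Hbb-b2* at least 1.17-fold, and only 1 of them without overlap. The mean over the 2 genes was 0.42 in tumor 1, above the -0.40 to 0.36 of control tissue.

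Skeletal muscle genes split the tumors. The mean over the list stood 0.80 to 3.18 above the control mean in tumors 3, 4, 6, 7, 8 and 11, and 0.54 to 0.85 below it in tumors 1, 2, 5, 9 and 10, against -0.20 to 0.31 in control tissue. *Myh1*, a fast myosin, had 6.16, 122.0 and 594.5 in tumors, against 10.9, 6.46, 6.01 and 0.872 in control tissue, at least 2.23-fold higher (adjusted p = 0.010). *Acta1*, skeletal actin, had 38.5, 199.7 and 1462 in tumors, against 515.9, 1417, 599.6 and 1822 in control tissue (difference -1.97 ± 0.79, adjusted p = 0.030). Of 9 genes tested, 4 rose and 2 fell, and 0 were free of overlap.

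Hox genes, which record the position of tissue along the body, differed by cluster. Of 27 listed, 24 are on the array and 17 passed the filter, 11 fell and 4 rose, with a median of -1.14 (-0.78 with 4 genes at their bounds). All 6 tested *Hoxc* genes fell, by 0.75 to 2.42. *Hoxc8* had 33.5, 69.4 and 171.2 in tumors, against 387.8, 394.9, 420.5 and 432.9 in control tissue (difference -2.24 ± 0.21, adjusted p = 1.1e-09). *Hoxc10* had 1.201, 7.48 and 56.3 in tumors, against 130.4, 176.4, 131.0 and 128.3 in control tissue (difference -2.42 ± 0.28, adjusted p = 3.6e-08). *Hoxa9* (-2.71) and *Hoxa7* (at least 1.74-fold lower) fell too. The 4 genes that rose were all of the *Hoxb* cluster, and all overlapped. *Hoxb6* had 18.2, 222.6 and 482.0 in tumors, against 28.1, 32.5, 23.6 and 33.9 in control tissue (difference 2.13 ± 0.51, adjusted p = 7.4e-04), *Hoxb3* (0.83) and *Hoxb2* (0.64) rose by less, and *Hoxb9* was at least 1.12-fold higher. The call of *Hoxb2* was lost without control tissue 1 (adjusted p = 0.11) and with tumors 4 to 11 alone (adjusted p = 0.095). Which glands the samples came from is not given in the labels, so position along the body and tumor cannot be told apart. Of 27 developmental transcription factors, 10 rose and 9 fell (median -0.08), near the shares over all genes (35.0% higher, 36.8% lower). *Grhl3*, of epidermal barrier formation, was at least 4.88-fold higher, *Sox21* rose by 1.96, and *Zeb2* (-1.94) and *Sox10* (-1.95) fell.

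Genes of the circadian clock shifted in opposite groups. Of 14 tested, 9 fell and 4 rose. The median was -1.51, and none of those 9 overlapped between the groups. *Dbp*, an output gene of the clock, had 32.2, 96.4 and 252.6 in tumors, against 829.5, 843.7, 1237 and 878.1 in control tissue (difference -3.18 ± 0.39, adjusted p = 1.0e-07). *Per3* (-2.55), *Hlf* (-2.51) and *Nr1d1* (-2.27), which are activated by the Clock and Arntl proteins or repress them, fell with it. *Arntl*, which encodes the activator Bmal1, had 70.2, 96.0 and 140.8 in tumors, against 56.5, 30.02, 54.3 and 35.6 in control tissue (difference 0.94 ± 0.16, adjusted p = 1.2e-05), *Bhlhe40* rose by 1.49 and *Cry1* by 0.58. *Clock* passed the test at 0.39 with overlap, and its other probe sets disagreed. The hour of collection is not given, so time of day and tumor cannot be told apart.

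**Figure D4:**
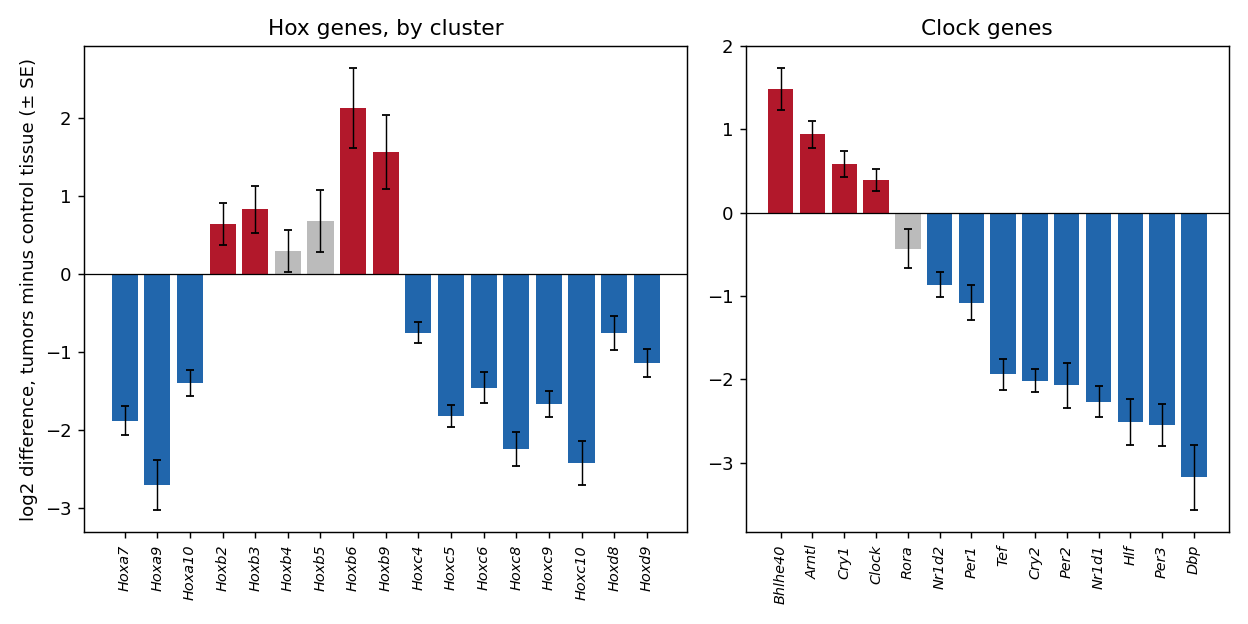
Log2 difference, tumors minus control tissue, of 17 Hox genes in cluster order (left) and 14 clock genes (right). Bars are the estimates with standard errors of limma, red for higher, blue for lower and grey for genes that did not pass the test, and the red Hox bars are all of the *Hoxb* cluster.

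To look beyond the lists, tested genes were grouped by the stem of their symbols into 289 families of at least 6 members, a grouping made after the results were known. In 218 families the median lay between -0.5 and 0.5, in 17 it was over 1 and in 2 it was under -1. The highest were *Sprr* (7 of 7 higher, median 6.19), *Lce* (11 of 11, 4.70), the kallikrein proteases *Klk* (9 of 10, 4.08), the clade B serpins *Serpinb* (14 of 15, 2.74) and *Mmp* (9 of 12, 2.53). Over all genes 35.0% were higher, and a gene that reached the cutoff of the filter only in tumors had to differ to be tested. Counts that include such genes are no support by themselves. Some *Sprr* and *Mmp* genes are also members of the lists above. *Klk7*, which sheds cells from the skin surface, rose by 6.67 and *Klk6* was at least 72.6-fold higher, whereas *Klk1*, of the neighbouring glandular group, fell by 0.33. *Serpinb2* was at least 22.1-fold higher and *Serpinb5*, maspin, rose by 2.74. The carbonic anhydrases were split, with *Car12* (at least 18.2-fold) and *Car2* (2.63) higher and *Car3* (-3.83) and *Car5b* (-3.38) lower. The lowest families were *Hoxc* (median -1.74), *Car* (-1.08), the adiponectin relatives *C1qtnf* (4 of 7 lower, -0.97), the peroxisome assembly genes *Pex* (11 of 13 lower, -0.96) and the organic ion transporters *Slc22a* (5 of 6 lower, -0.93). The *Adamts* proteases had 1 of 10 higher and 4 lower (median -0.15).

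**Figure D5:**
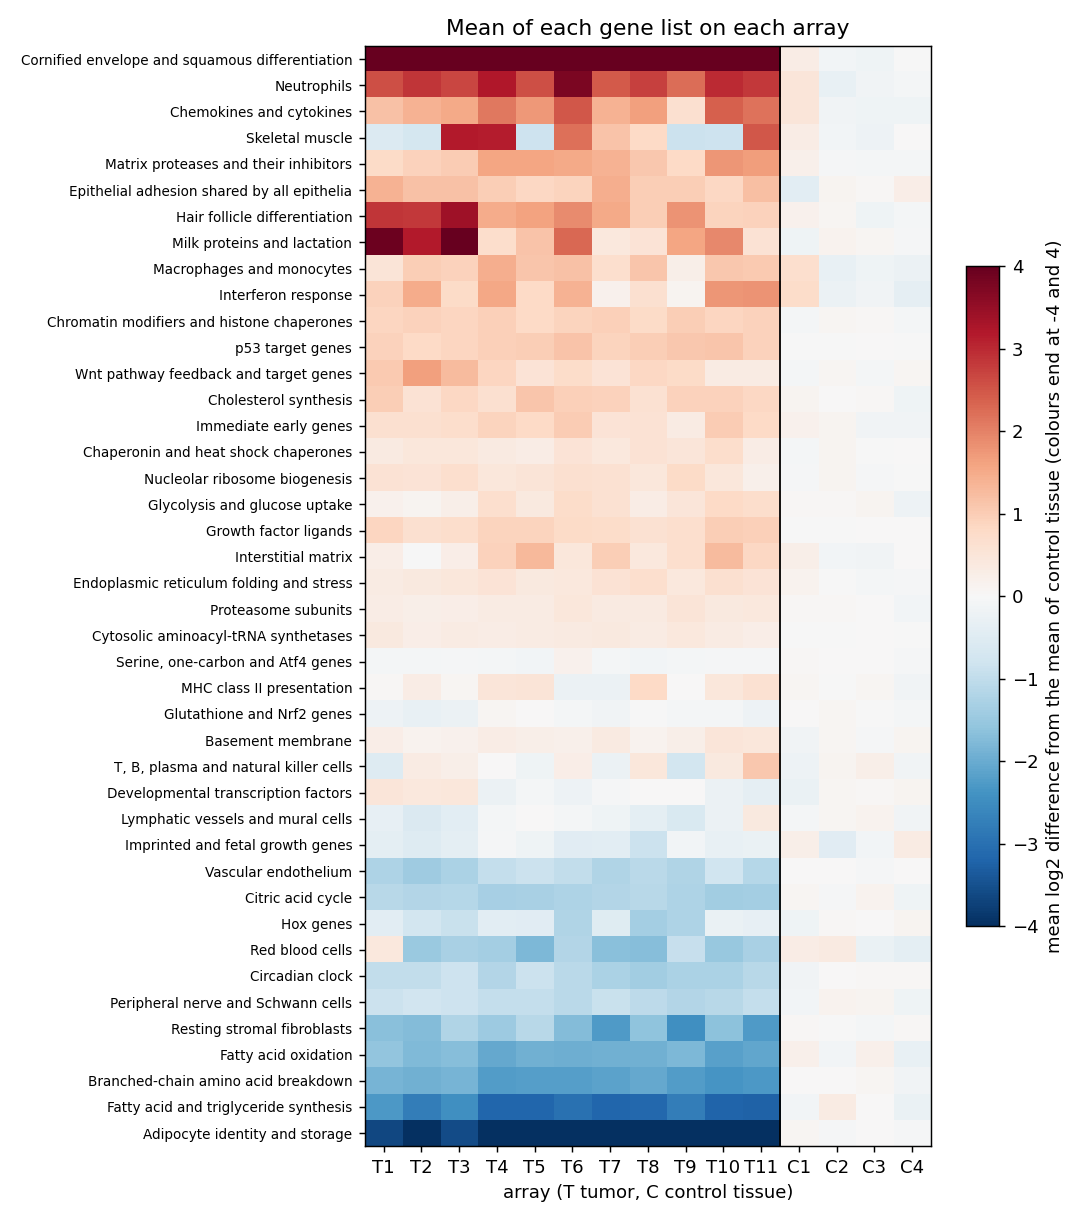
Mean of each gene list on each array, on the log2 scale with the control mean at 0, for 11 tumors (T1 to T11, left) and 4 control tissues (C1 to C4, right), with lists ordered by their median difference. The cornified envelope row is red in every tumor, the adipocyte row is blue in every tumor, tumors 1 to 3 have the highest hair follicle and milk values, and skeletal muscle is high in 6 tumors.

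The list means varied to different degrees among the tumors. The widest ranges were those of skeletal muscle (-0.85 to 3.18), milk (0.43 to 4.39), hair follicle (0.89 to 3.38), red blood cell (-1.79 to 0.42) and adipocyte genes (-5.54 to -3.59). The narrowest were those of aminoacyl-tRNA synthetases (0.26 to 0.44), chromatin modifiers (0.76 to 0.99) and serine and one-carbon genes (-0.11 to 0.16). Cornified envelope genes (4.60 to 5.91) and interstitial matrix genes (-0.02 to 1.31) had ranges of about the same width, the first far above control tissue in all 11 tumors. Tumors 1, 2 and 3, whose arrays had the higher median signals, were the highest for the hair follicle and milk lists and the least low for the adipocyte list, and had interstitial matrix means of -0.02 to 0.28, against 0.43 to 1.31 in tumors 4 to 11. The part of the array median in these values was not tested.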

How the data were processed

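RNA of whole mammary tissue was hybridised to Affymetrix mouse 430 2.0 arrays by the study, 1 array per sample. The deposited intensity values are MAS5 signals that the authors computed in Affymetrix Expression Console (version not given in the sources used here) and scaled to a mean of 100 on each array, with the top and bottom 2% trimmed. Of 45101 probe sets, 64 controls were left out. GEO's platform annotation gave 1 gene symbol to 34945, several to 932 and none to 9160, and 204 single symbols had no match in RefSeq. Samples were grouped by their titles. log2(signal + 16) was fitted in R 4.3.3 with limma 3.58.1 (lmFit, eBayes with trend) over all 25 tissue arrays, which also include 5 large and 5 small hyperplasias, and p-values were adjusted by Benjamini-Hochberg over all 24086 probe sets whose higher group median was at least 30. A signal below 30 on every array of a group gives only a bound, so such genes have an "at least" fold, the mean log2 signal of the brighter group against 30. Where a gene has several probe sets, the one brightest on average over these arrays stands for it. The number of arrays limits the precision.

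The 42 gene lists (846 of 912 entries matched the array) and the comparison were chosen with earlier results of these data known. Named genes were the 12 largest rises and falls with a median of at least 100 in the higher group and no overlap, up to 4 called members of each list in its main direction and up to 2 in the other (all, where 5 or fewer moved against the rest), *Ctnnb1* and *Krt5*. The symbol families, motifs, AP-1 genes, genes with printed promoters and the alternative with tumors 4 to 11 were chosen after seeing the data. Promoters are from RefSeq (GRCm38.p6) at the first listed start, and 9523 of 11831 genes had one. Alternatives were no offset, a floor at 30, other filters, quantile normalization, a fit of both groups alone, array weights, a replicate block, the methods' t-test, a ratio over 2 as well, and leaving out each array. The procedure was tested on simulated data. Replicate numbers do not pair the samples: same-numbered tumors and control tissues had correlations of deviations of -0.13, 0.03, 0.10 and -0.03. No arrays held identical values.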

Additional observations from a re-analysis of the deposited data

Results flagged for a closer look

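In 28 of 292 sets of 4 control values, from named genes and list means, 1 control tissue lay far from the other 3, judged by its gap to the nearest value as a share of the whole range. Chance alone sets apart about 1 in 20 such sets. All sets come from the same 4 arrays, and list means include named genes. The sets are thus not independent, and 28 of 292 cannot be read as an excess over that share. The share of the range was 0.918 for *Krt6b*, 0.834 for *Hibch*, 0.903 for *Aldh18a1*, 0.84 for *Qars*, 0.87 for *Nop10*, 0.942 for *Psma5*, 0.925 for *Lgr5*, 0.884 for *Vcan*, 0.918 for *Lama4*, 0.878 for *Trem2*, 0.956 for *Cd3d*, 0.98 for *Oas1a*, 0.935 for *Oasl2*, 0.851 for *Cxcl5*, 0.899 for *Ccl11*, 0.889 for *Hmga2*, 0.936 for *Grhl3*, 0.936 for *Hoxc10*, 0.858 for *Dbp*, 0.937 for *Tnni2* and 0.863 for *Cldn3*. For list means it was 0.853 for ribosome assembly, 0.884 for the proteasome, 0.942 for matrix proteases, 0.873 for macrophages, 0.945 for chemokines and cytokines, 0.835 for developmental transcription factors and 0.838 for p53 targets. Groups of more than 10 samples, such as the tumors, were not examined in this way.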

How the results depend on the processing

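The 8002 higher and 8650 lower probe sets (33.2% and 35.9% of 24086) stayed within 1.5 times under all alternatives but one: asking also for a ratio of group medians over 2 left 3526 higher and 3814 lower. Leaving out each array gave 7527 to 8076 higher and 8139 to 8682 lower, and tumors 4 to 11 alone, an alternative chosen after seeing the data, gave 7760 and 8751. With the replicate number as a block, 7661 were higher and 7452 lower, although the numbers do not pair the samples, and *Lgr5* lost its call (-0.37, adjusted p = 0.27). *Hspa8* reversed its sign under quantile normalization (0.0275, adjusted p = 0.80, against -0.23 as deposited, adjusted p = 0.041). The cause was not tested. Among list counts, 1044 values stayed within 1.5 times and 6 did not: proteasome genes higher (11 under the block), MHC class II genes higher (1 in a fit of both groups alone and without control tissue 2 or 4), Hox genes lower (7) and red blood cell genes lower (1) with a filter on the mean signal, which tests fewer genes. Taking the median over all probe sets of a gene moved 4 list medians, to 1.16 for epithelial surface, 0.04 for Nrf2, 0.0011 for basement membrane and -1.25 for clock genes. Of the values of named genes, 6145 kept direction and call, 93 lost the call and 1 reversed. Signals below 30 give bounds only.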
